A study of Mus musculus with 58 samples.

Results

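The 43 genes described here carry the symbols of nuclear-encoded subunits of the last 3 protein complexes of the mitochondrial respiratory chain and were chosen and grouped by symbol alone: of the 52459 gene symbols counted in the mouse retina, 8 began with Uqcr (complex III), 18 with Cox4i, Cox5, Cox6, Cox7 or Cox8 (complex IV) and 17 with Atp5 (complex V). The rule also took in 3 genes that are no core subunits, Cox7a2l, Atp5s and Atp5sl, which are counted here under the complex of their symbol. All 43 were annotated as protein-coding, and all lie in the nuclear genome. Retinas came from male mice aged 4 months that had been kept from birth under 12 h of light and 12 h of darkness. Diabetic mice were heterozygous for Ins2Akita, a dominant mutation of one of the mouse insulin genes that makes the insulin-producing cells fail, and control mice were their wild-type littermates without the phenotype, on the C57BL/6 background. All mice were perfused with cold phosphate-buffered saline before dissection, and night collections were made under dim red light. The mutation is carried by every cell, and the whole retina was extracted, with no separation of cell types. Total RNA depleted of ribosomal RNA was sequenced in 58 libraries at Zeitgeber time (ZT, hours after lights on) 1, 5, 9, 13, 17 and 21, with lights off from ZT12. The control groups held 5, 6, 5, 5, 5 and 4 libraries in that order, and the diabetic groups held 5, 5, 5, 4, 4 and 5.

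Complex III (ubiquinol-cytochrome c reductase) passes electrons from ubiquinol to cytochrome c, complex IV (cytochrome c oxidase) passes them from cytochrome c to oxygen, and both move protons across the inner mitochondrial membrane. Complex V (ATP synthase) lets the protons flow back and uses the energy to make ATP. Each complex is encoded in small part in mitochondrial DNA and for the most part in the nucleus. Several nuclear subunits of complex IV exist as alternative isoforms typical of muscle, testis or lung. Photoreceptors are among the cells with the highest oxygen use in the body, and their demand for ATP is known to be higher in darkness, when the channels of the outer segment stay open.

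The members named by a result below are shown first by the DNA in front of their start site, because promoters of respiratory chain genes are known for recognition motifs of the factors NRF1, GABP (an ETS-family factor) and YY1. RefSeq (GRCm38.p6) gave a promoter for 34 of the 43 genes, each covering 250 bases before to 50 bases after the start. On either strand, the NRF1 motif (GCGC, any base, then TGCGC) was found for 8 of the 34 genes, the ETS motif CCGGAAG for 10, the YY1 motif AAGATGGCG for 3 and the E-box CACGTG, the motif bound by the clock factors BMAL1 and CLOCK, for 5. The shares over the 27025 genes with a promoter of the same length were 5.19%, 9.93%, 1.64% and 8.09% in the same order. At least 1 of the first 3 motifs was present for 17 of the 34 genes (50%), compared with 15.1% of all genes. None of the 4 motifs is contained in another, and a match is a description of the sequence, not evidence of binding. The 150 bases directly before the start of the 6 members that passed a test and had a promoter in RefSeq follow, 5′ to 3′ on the gene's strand, with motif matches in capitals. They lie at chr4:116075071-116075220 for Uqcrh, chr17:83514334-83514483 for Cox7a2l, chr7:140900447-140900596 for Cox8b, chr10:128083157-128083306 for Atp5b, chr10:80142125-80142274 for Atp5d (the upstream of its 2 RefSeq starts) and chr11:96075632-96075781 for Atp5g1, on the minus strand for all but Atp5b and Atp5d.
Uqcrh: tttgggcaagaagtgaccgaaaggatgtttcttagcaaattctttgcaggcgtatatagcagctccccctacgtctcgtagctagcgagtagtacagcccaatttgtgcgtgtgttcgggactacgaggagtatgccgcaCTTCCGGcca
Cox7a2l: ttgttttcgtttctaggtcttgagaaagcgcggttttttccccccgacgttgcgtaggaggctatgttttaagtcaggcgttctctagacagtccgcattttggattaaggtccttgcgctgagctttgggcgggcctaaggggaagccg
Cox8b: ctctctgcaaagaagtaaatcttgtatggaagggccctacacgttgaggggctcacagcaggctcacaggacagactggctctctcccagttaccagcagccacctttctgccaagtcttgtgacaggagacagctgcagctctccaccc
Atp5b: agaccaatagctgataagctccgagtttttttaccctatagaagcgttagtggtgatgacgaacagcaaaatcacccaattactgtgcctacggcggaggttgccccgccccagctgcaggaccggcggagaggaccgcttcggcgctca
Atp5d: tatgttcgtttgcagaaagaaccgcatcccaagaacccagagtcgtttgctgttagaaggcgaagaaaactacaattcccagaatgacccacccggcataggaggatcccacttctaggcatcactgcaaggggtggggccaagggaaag
Atp5g1: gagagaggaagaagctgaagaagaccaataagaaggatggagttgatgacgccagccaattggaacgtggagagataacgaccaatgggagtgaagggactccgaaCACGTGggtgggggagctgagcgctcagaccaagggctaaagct
An ETS match, on the opposite strand, stood in the Uqcrh stretch and an E-box in that of Atp5g1. The other 4 stretches held none of the 4 motifs.

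The libraries held 7773117 to 22147398 counted reads, with a median of 15406440, and the 43 members together took 0.291% of all reads. Levels are given as CPM, read counts scaled to a common library size with TMM factors, and the tests ran over the 19120 genes whose median normalized count was above 4. Of the 43 members, 40 passed this filter, which uses all libraries together. The 3 others were complex IV isoforms of muscle or testis: Cox6a2 had 60 reads in all over 35 libraries, Cox7b2 had 30 reads over 24 libraries and Cox8c had none. All 8 rod markers were abundant, with a summed level of 39350 to 58710 CPM per library. Lens markers stood out in 3 control libraries, ZT1 replicate 6, ZT17 replicate 5 and ZT21 replicate 2, at 2582, 1705 and 1939 CPM, while the next highest library held 58.2 CPM. Each count of members at an adjusted p under 0.05 that follows was the same without these 3 libraries, a setting chosen after the data were seen.

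Per length, subunits of complexes V and IV had the highest levels. Atp5b, the catalytic beta subunit of ATP synthase, had the highest level of all members at 371 CPM per kilobase of transcript. In CPM, Atp5b ranged from 597 to 880 over control libraries (median 725) and from 608 to 893 over diabetic libraries (median 692). Atp5a1, the alpha subunit that forms the ring of the catalytic head with beta, and Cox4i1, the ubiquitous form of the largest nuclear subunit of complex IV, both stood at 167 CPM per kilobase. Uqcrh, the hinge protein that helps cytochrome c dock, led complex III with 115 CPM per kilobase. The core proteins Uqcrc1 and Uqcrc2 (40.09 and 40.03 CPM per kilobase) and the Rieske iron-sulfur protein Uqcrfs1 (32.2 CPM per kilobase) lay below the small subunits Uqcrq (101), Uqcrb (73.0), Uqcr10 (62.2) and Uqcr11 (51.3). In the order of all 43 genes, the ranges of neighbours over the libraries overlapped at every step but the first, below Atp5b. Transcript length was taken from 1 annotated transcript per gene, and a different choice would shift these per-length levels.

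**Figure D1:**
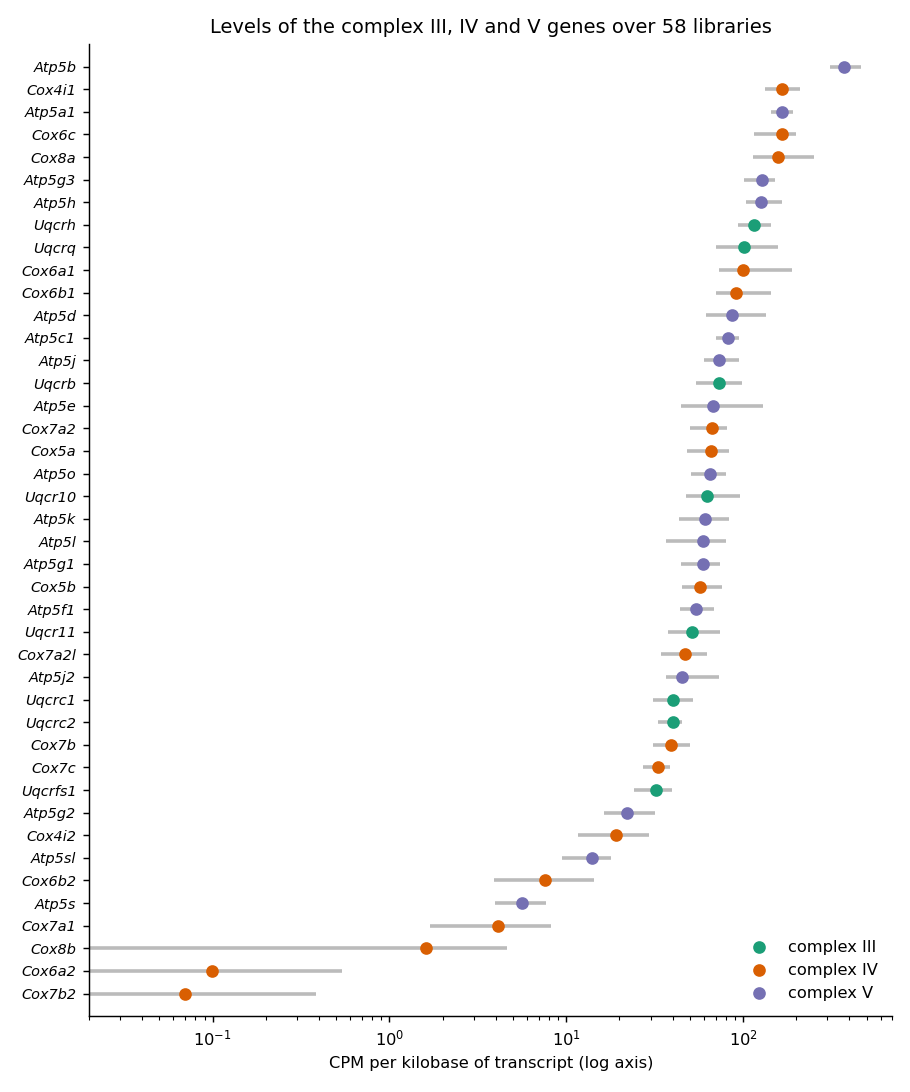
Level of each member per kilobase of transcript on a log axis, with points for the mean over the 58 libraries, coloured by complex, and grey bars from the lowest to the highest library (bars that reach 0 are drawn to the left edge of the axis). Atp5b stands alone at 371 CPM per kilobase, the next, Atp5a1 and Cox4i1, are at 167, and the muscle and testis isoforms of complex IV form the tail. Cox8c, with no reads, is not drawn.

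The isoform pairs of complex IV differed widely in level per length. The ubiquitous forms Cox4i1, Cox6a1, Cox6b1, Cox7a2 and Cox8a stood at 167, 100.1, 90.9, 67.1 and 159 CPM per kilobase, and their counterparts Cox4i2, Cox6a2, Cox6b2, Cox7a1 and Cox8b at 19.2, 0.0996, 7.61, 4.13 and 1.62. Cox4i1 had a mean of 126 ± 10.98 CPM (SD, n = 30) in control and 122 ± 13.5 CPM (n = 28) in diabetic retinas, and Cox4i2, the isoform known from lung and hypoxic tissue, had 14.1 ± 2.36 and 13.8 ± 2.05 CPM. Of the Cox6a pair, the ubiquitous Cox6a1 had 57.3 ± 11.7 and 56.9 ± 14.2 CPM, while the muscle form Cox6a2 reached at most 0.365 CPM in any library. The somatic Cox6b1 had 57.4 ± 8.35 and 54.9 ± 8.64 CPM, and the testis form Cox6b2 had 3.37 ± 0.786 and 3.73 ± 0.939 CPM. Cox7a2 had 45.01 ± 4.22 and 43.3 ± 5.00 CPM against 1.52 ± 0.422 and 1.74 ± 0.611 CPM for its muscle counterpart Cox7a1. Cox8a had 90.0 ± 18.6 and 84.3 ± 14.6 CPM, and the muscle form Cox8b had 0.674 ± 0.40 and 0.483 ± 0.365 CPM. In the libraries, Cox8b corresponded to a mean of 8.90 reads and was at 0 in 2 of the 58. Of the other subunits, Cox6c had 83.6 ± 9.02 and 82.6 ± 6.47 CPM. The values were 42.3 ± 4.93 and 42.2 ± 6.10 CPM for Cox5a, 49.5 ± 6.96 and 49.1 ± 5.74 CPM for Cox5b and 38.7 ± 3.67 and 39.5 ± 4.07 CPM for Cox7b, whose testis form Cox7b2 reached at most 0.209 CPM.

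The c subunit of ATP synthase, which forms the rotating membrane ring, is made from 3 genes that encode the same mature protein. Atp5g3 was the most abundant of them per length at 128 CPM per kilobase, Atp5g1 stood at 59.4 and Atp5g2 at 22.1. In control and diabetic retinas, Atp5g3 had 91.5 ± 8.22 and 90.8 ± 9.53 CPM, Atp5g1 had 35.3 ± 4.28 and 35.5 ± 3.29 CPM, and Atp5g2 had 10.2 ± 1.61 and 9.28 ± 0.886 CPM. Of the 3 genes that are no core subunits, Atp5s, a coupling factor B protein, had 8.68 ± 1.41 and 7.93 ± 1.11 CPM, and Atp5sl, an assembly protein of complex I, had 33.3 ± 3.87 and 33.4 ± 4.28 CPM. Cox7a2l, described as a scaffold of respiratory supercomplexes, had 53.8 ± 7.75 and 47.1 ± 4.60 CPM. Many of these genes have processed pseudogenes of near-identical sequence, and how reads that fit several places were counted is not given in the sources used here, so single levels may be short of such reads. The strand setting of the counting is not given either. The most abundant genes that overlap a member on the other strand lie at Cox6c (Vps13b), Cox4i1 (Emc8), Atp5d (Cbarp), Atp5f1 (Wdr77) and Atp5j (Gabpa), and reads of such pairs cannot be told apart without the strand.

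The question of a daily rhythm was asked per genotype with a 24 h cosine fitted to all libraries of both genotypes (edgeR's quasi-likelihood test with Benjamini-Hochberg adjustment over all genes). In control retinas, 5 of the 40 tested members changed over the day at an adjusted p under 0.05, which is 12.5% of them, compared with 12.1% of all genes. They were Atp5b, Atp5d and Atp5g1 of complex V and Cox4i2 and Cox8b of complex IV, and all 5 peaked between ZT17.2 and ZT20.1. In diabetic retinas, 2 members passed, Cox8b and Uqcrh, while 14.1% of all genes did. At an unadjusted p under 0.05, 14 members passed in control (26.3% of all genes) and 12 in diabetic retinas (26.9% of all genes). The 40 members held 35% and 30% at that level, against the shares just given. With the replicate number added to the edgeR fit, 9 members (22.5%) passed after adjustment in control and 2 (5.0%) in diabetic retinas. In that fit 15.7% of all genes passed in each genotype. By the study's own rule, empirical JTK_CYCLE with an unadjusted p under 0.05 and a minimum fold, 10 members were called in control retinas (21.8% of all genes) and 6 in diabetic retinas (23.9% of all genes).

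Single libraries decided how many members were called. Leaving out 1 library at a time gave 0 to 11 called members in control and 0 to 4 in diabetic retinas, while the share of all genes called in the same fits ran from 8.96% to 16.4% and from 11.2% to 16.9%. In controls, the count was 0 without ZT17 replicate 3, 1 without ZT17 replicate 1, 2 without ZT9 replicate 3 or without ZT21 replicate 4, 3 without ZT5 replicate 1, 8 without ZT13 replicate 2 or without ZT9 replicate 5, and 11 without ZT9 replicate 4. In the fit with 0 members 8.96% of all genes were called, and in the fit with 11 (27.5% of the members) 16.4% of all genes were. In diabetic retinas, it was 0 without ZT21 replicate 4, 4 without ZT17 replicate 4, and 1, Cox8b alone, without ZT5 replicate 5, ZT9 replicate 1, ZT17 replicate 3, ZT17 replicate 5, ZT21 replicate 1 or ZT21 replicate 3. With the ZT17 libraries left out altogether, 0 members passed in control and 1 in diabetic retinas, and fewer of all genes were called in both genotypes as well.

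Among the head subunits of ATP synthase, Atp5b was highest at ZT17. Its level in the 5 control libraries at ZT17 was 809, 792, 880, 690 and 731 CPM, and the 6 control libraries at ZT5 ran from 626 over a median of 665 to 690 CPM. The 2 groups did not overlap, with 690.2 CPM as the lowest at ZT17 and 690.0 CPM as the highest at ZT5. The fitted log2 amplitude, the distance from the daily mean to the peak, was 0.11 ± 0.03 (SE, n = 30) with a peak at ZT18.6 and a peak-to-trough fold of 1.17 (adjusted p = 0.0274 by edgeR). In diabetic retinas, Atp5b reached 815, 893, 647 and 790.5 CPM at ZT17 and 705, 674, 695, 725 and 614 CPM at ZT5, so the groups overlapped, and the fit gave 0.09 ± 0.03 with a peak at ZT17.2 (edgeR adjusted p = 0.104). Atp5d, the delta subunit of the central stalk, stood at 117, 82.0, 125, 92.05 and 79.1 CPM at ZT17 in control retinas and at 65.5, 69.7, 66.1, 78.8, 83.5 and 75.8 CPM at ZT5, with overlap through the 2 lowest ZT17 libraries. Its log2 amplitude in control retinas was 0.19 ± 0.05 (peak at ZT18.5, edgeR adjusted p = 0.0256) and 0.14 ± 0.05 in diabetic retinas (peak at ZT17.3, edgeR adjusted p = 0.170). The overlapping neighbour Cbarp, with a mean of 1359 reads compared with 1212 for Atp5d, limits what can be said of this gene. The other head and stalk subunits did not pass in either genotype, and Atp5a1 (0.03 ± 0.03 and 0.04 ± 0.03) and Atp5c1, the gamma subunit of the stalk (0.01 ± 0.03 and 0.07 ± 0.03), had small amplitudes.

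Of the 3 genes for the c ring, Atp5g1 passed in control retinas. It was at 37.6, 35.6, 42.4, 35.5 and 44.0 CPM at ZT17 and at 30.3, 31.6, 28.97, 36.02, 35.8 and 33.1 CPM at ZT5, so the lowest libraries of ZT17 reached into the range of ZT5. Its log2 amplitude was 0.13 ± 0.03 in control (peak at ZT17.2, edgeR adjusted p = 0.0187) and 0.11 ± 0.04 in diabetic retinas (peak at ZT15.3, edgeR adjusted p = 0.103). Atp5g3 had 0.05 ± 0.04 and 0.08 ± 0.04 and Atp5g2 had 0.12 ± 0.05 and 0.04 ± 0.05, with no call. Atp5h, a subunit of the outer stalk, had 0.11 ± 0.04 and 0.10 ± 0.04, with an unadjusted p under 0.05 in both genotypes and an adjusted p of 0.0878 and 0.116 by edgeR.

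In complex IV, Cox4i2 passed in control retinas. The 5 control libraries at ZT17 had 20.6, 14.8, 18.7, 14.0 and 16.4 CPM, and those at ZT9 had 13.1, 12.4, 8.45, 14.1 and 13.0 CPM, so only the highest library of ZT9 reached the lowest of ZT17. The log2 amplitude was 0.19 ± 0.05 in control (peak at ZT20.1, edgeR adjusted p = 0.0240) and 0.16 ± 0.05 in diabetic retinas (peak at ZT17.5, edgeR adjusted p = 0.0517). Its ubiquitous partner Cox4i1 had 0.06 ± 0.04 and 0.07 ± 0.04, with no call in either. Cox8b passed in both genotypes and had the largest amplitude of all members. Control libraries were at 1.32, 0.496, 1.67, 0.705 and 0.767 CPM at ZT17 and at 0.501, 0.354, 0.126, 0.648, 0.218 and 0.298 CPM at ZT5, and diabetic libraries were at 1.005, 0.385, 1.251, 1.271 and 0.621 CPM at ZT21 and at 0.263, 0.125, 0.00, 0.112 and 0.186 CPM at ZT5. The ZT5 and ZT21 libraries of diabetic mice did not overlap. At ZT17, next to the fitted peak, the diabetic libraries were at 0.831, 0.432, 0.102 and 0.364 CPM, which overlapped ZT5 and had a lower mean (0.432 CPM) than ZT13 (0.754 CPM) or ZT21 (0.906 CPM). The log2 amplitude was 0.69 ± 0.20 in control (peak at ZT18.7, peak-to-trough fold 2.61, edgeR adjusted p = 0.0343) and 0.85 ± 0.23 in diabetic retinas (peak at ZT17.8, fold 3.25, edgeR adjusted p = 0.0239).

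At a mean of 8.90 reads, Cox8b is the member with the least depth behind a call, and markers of muscle, where it is known to be expressed, were read beside it. The 5 muscle markers Ckm, Actn3, Myh2, Myl1 and Tnnt3 summed to 0.00 to 1.31 CPM in control and 0.479 to 5.36 CPM in diabetic libraries, with reads of Myh2 in 15 and of Tnnt3 in 23 of the 58 libraries. From ZT1 to ZT21, their mean sums were 0.775, 0.661, 0.930, 0.848, 1.03 and 1.11 CPM in control retinas and 0.638, 0.808, 0.929, 1.01, 1.15 and 1.84 CPM in diabetic retinas. Ckm itself passed the test of rhythm in control retinas (edgeR adjusted p = 0.0122) and not in diabetic retinas (edgeR adjusted p = 0.179). Their part in the Cox8b result was not tested. The muscle isoform Cox7a1 had log2 amplitudes of 0.07 ± 0.11 (control) and 0.30 ± 0.11 (diabetic) (edgeR adjusted p = 0.916 and 0.124). The testis isoform Cox6b2 had 0.16 ± 0.09 and 0.17 ± 0.09 (edgeR adjusted p = 0.436 and 0.388).

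**Figure D2:**
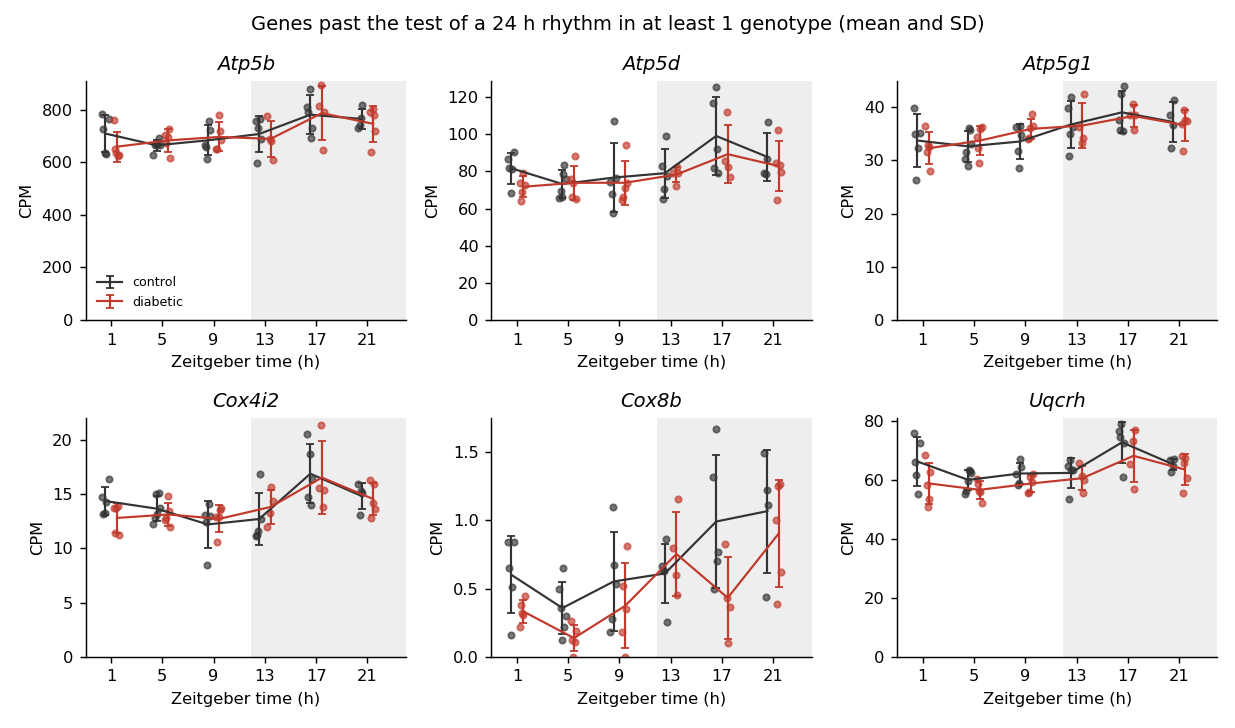
CPM of the 6 members past the test of a 24 h rhythm in at least 1 genotype, against Zeitgeber time, with 1 point per library and lines for the mean and SD of each group (control dark grey, diabetic red, night shaded). The fitted peak-to-trough fold in controls ran from 1.16 for Uqcrh to 2.61 for Cox8b, with fitted peaks in the night, and single libraries of different times overlap widely.

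Among the other ubiquitous subunits of complex IV, Cox6a1 had log2 amplitudes of 0.18 ± 0.07 (control) and 0.20 ± 0.07 (diabetic), Cox6b1 had 0.15 ± 0.05 and 0.13 ± 0.05, and Cox8a had 0.17 ± 0.06 and 0.12 ± 0.07. None of these passed after adjustment (edgeR adjusted p from 0.0607 to 0.465). Cox5a (0.08 ± 0.05 and 0.10 ± 0.05), Cox5b (0.10 ± 0.04 and 0.08 ± 0.05), Cox7a2 (0.06 ± 0.04 and 0.09 ± 0.04), Cox7a2l (0.08 ± 0.04 and 0.03 ± 0.05) and Cox7b (0.07 ± 0.03 and 0.10 ± 0.04) did not pass either. In complex III, the hinge protein gene Uqcrh was the only member called by edgeR, in diabetic retinas, while empirical JTK_CYCLE called it at an unadjusted p under 0.05 in control retinas and no complex III member in diabetic retinas. Diabetic libraries were at 65.4, 73.4, 57.2 and 77.1 CPM at ZT17 and at 60.5, 58.6, 56.2, 56.0 and 52.3 CPM at ZT5, with overlap through 1 library of ZT17. The log2 amplitude was 0.12 ± 0.03 in diabetic (peak at ZT17.6, edgeR adjusted p = 0.0362) and 0.11 ± 0.03 in control retinas (peak at ZT18.9, edgeR adjusted p = 0.0508), so the 2 genotypes fell on either side of the threshold with nearly the same amplitude. Uqcrq had 0.14 ± 0.05 and 0.10 ± 0.05, Uqcr10 had 0.11 ± 0.05 and 0.13 ± 0.05, and Uqcrb, which binds ubiquinone with its neighbours, had 0.08 ± 0.05 and 0.10 ± 0.05, all with no call.

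The direction of the fitted rhythms was shared more widely than the calls. The peak fell in the dark phase for 35 of the 40 members in control and for 34 in diabetic retinas, compared with 46.1% and 48.1% of all genes. It also fell there for 70 of 81 ribosomal protein genes in control and for 72 in diabetic retinas. For 35 complex I genes the counts were 28 and 27, and for 30 assembly factors 12 and 11. Dark-phase peaks were thus not particular to the members. Most of these fits were not called, and genes that move together over the libraries are not independent events. The highest of the 6 group means was that of ZT17 for 26 members in control (25.7% of all genes) and for 22 in diabetic retinas (24.1% of all genes), with 13 of the 15 tested complex IV genes at ZT17 in controls. The lowest mean was at ZT5 for 15 and at ZT9 for 13 members in control retinas (17.82% and 13.25% of all genes), whereas in diabetic retinas it was at ZT1 for 27 members, compared with 16.3% of all genes. The amplitudes themselves were small, with a median of 0.089 in control and 0.097 in diabetic retinas on the log2 scale, below the medians over all genes of 0.103 and 0.105. Of the day-peaking members, chosen here after their values were seen, Atp5l, a small subunit of the membrane part of ATP synthase, had a log2 amplitude of 0.17 ± 0.05 with a peak at ZT6.97 in control and 0.12 ± 0.06 at ZT6.69 in diabetic retinas (edgeR adjusted p = 0.0850 and 0.331).

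Members moved together from library to library. The median Pearson correlation between members, after the mean of each group was taken off, was 0.361 over 780 pairs and 58 libraries, and 81.03% of the pairs were above 0. Atp5a1 and Atp5b, which build the catalytic head together, had a correlation of 0.939. Atp5l stood against the others with a median of -0.480, followed by Atp5s (-0.011) and Atp5f1 (0.027). Genes outside the member list moved with them. The median deviation of the members in a library correlated at 0.937 with that of 81 ribosomal protein genes, at 0.917 with that of 35 complex I genes and at 0.890 with that of 547 other transcripts under 1000 bases with levels above 10 CPM. Over all 2571 other transcripts under 1000 bases, whatever their level, it was -0.191, and over 11725 transcripts of 2000 bases or more it was -0.443. All these values come from the same 58 libraries, and the correlations are descriptions.

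Summed up as the median deviation over the 40 members, controls were at 0.13 ± 0.11 (log2, SD, n = 5) at ZT17 and at -0.04 ± 0.09 (n = 5) at ZT9, and diabetic retinas were at 0.07 ± 0.16 (n = 4) at ZT17 and at -0.10 ± 0.08 (n = 5) at ZT1. Control libraries at ZT1 ran from -0.21 to 0.19, the widest range of any group, and diabetic libraries at ZT1 from -0.16 to 0.05. At ZT17 the control libraries ran from -0.03 to 0.27, and so overlapped with every other time point. The cosine through these medians had a log2 amplitude of 0.073 and a peak at ZT18.8 in control and 0.072 at ZT16.4 in diabetic retinas, and ribosomal protein genes had 0.077 at ZT19.0 and 0.064 at ZT15.3. For other short transcripts above 10 CPM it was 0.048 at ZT18.9 and 0.034 at ZT16.0. Markers of the pigment epithelium, which adheres to the retina, had mean sums, from ZT1 to ZT21, of 61.4, 75.9, 174.8, 152, 166 and 222 CPM in control retinas and 59.5, 30.3, 109.9, 205.7, 126 and 207 CPM in diabetic retinas. They were lowest at ZT1 and ZT5 and highest at ZT21 in both genotypes, with control ZT9 above control ZT17, and their correlation with the members over the libraries within groups was 0.305. Over 12 marker lists these correlations ran from 0.026 for muscle to 0.655 for rods. The part of any of these in the rhythms was not tested.

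**Figure D3:**
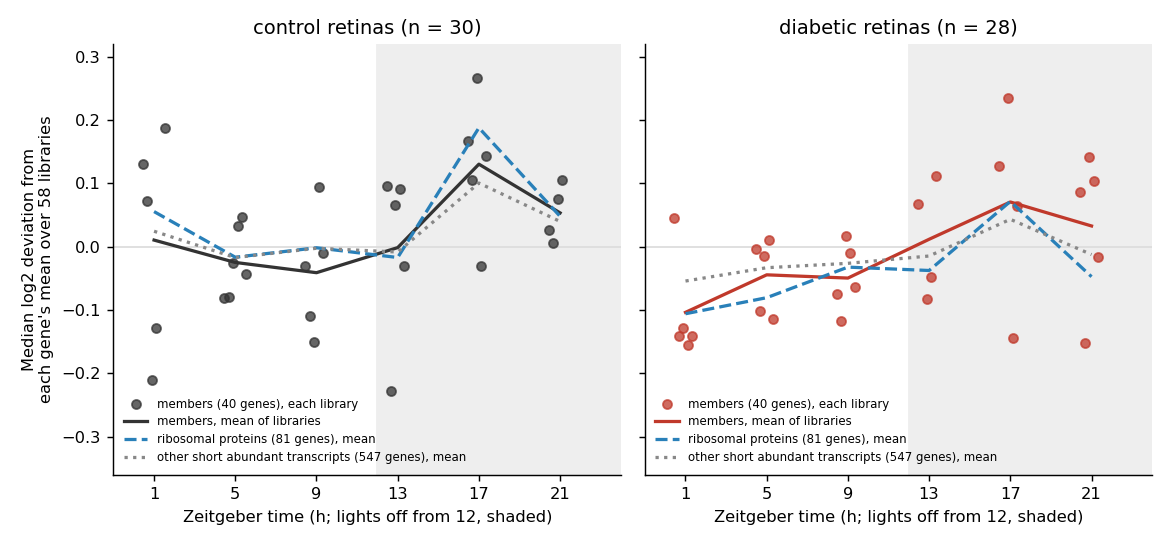
Median log2 deviation of the 40 tested members from each gene's mean over all libraries, against Zeitgeber time, with 1 point per library and the mean of each group as a solid line, for control (left) and diabetic (right) retinas. The means of 81 ribosomal protein genes (dashed) and of 547 other short, abundant transcripts (dotted) are also highest at ZT17 in both genotypes (0.13 for the members in control and 0.07 in diabetic retinas).

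Whether the rhythm differed between genotypes was tested by the difference of the cosine terms. No member passed (edgeR, 0 of 40, with 0.0% of all genes called), and at an unadjusted p under 0.05 the count was again 0, compared with 3.29% of all genes. DESeq2 also called 0. The members nearest to a difference were, in order, Cox6c, Atp5sl, Cox4i2, Atp5c1 and Atp5j2, each with an adjusted p of 1.0 (edgeR). Their fitted peaks in control and diabetic retinas were at ZT4.65 and ZT12.3 for Cox6c, a small subunit of complex IV, ZT15.2 and ZT10.5 for Atp5sl, ZT20.1 and ZT17.5 for Cox4i2, ZT19.1 and ZT13.3 for Atp5c1 and ZT19.4 and ZT15.6 for Atp5j2, a subunit of the membrane part. A call in 1 genotype and not in the other, as for Atp5b, is therefore no sign of a difference between them.

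As a description, the fitted peak was earlier in diabetic retinas for 36 of the 40 members, with a median of -2.36 h. Over all genes the peak was earlier for 59.2%, with a median of -0.65 h. All 17 genes with Atp5 symbols were on the earlier side, with 13 of the 15 tested complex IV symbols and 6 of the 8 Uqcr symbols. Of the 9 members with an unadjusted p under 0.05 in both genotypes (Uqcrh, Cox4i2, Cox6a1, Cox6b1, Cox8b, Atp5b, Atp5d, Atp5g1 and Atp5h), all 9 had the earlier fitted peak in diabetic retinas, with a median difference of -1.76 h (diabetic minus control). Of all genes, 2936 were at that level in both genotypes, and 2043 of them had the earlier peak in diabetic retinas, with a median of -0.62 h. Ribosomal protein genes had an earlier peak for 73 of 81 and a median of -2.81 h, and complex I genes for 26 of 35 and -1.81 h. The samples are 4 h apart, and since members of a library move together, these counts are not counts of independent events.

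**Figure D4:**
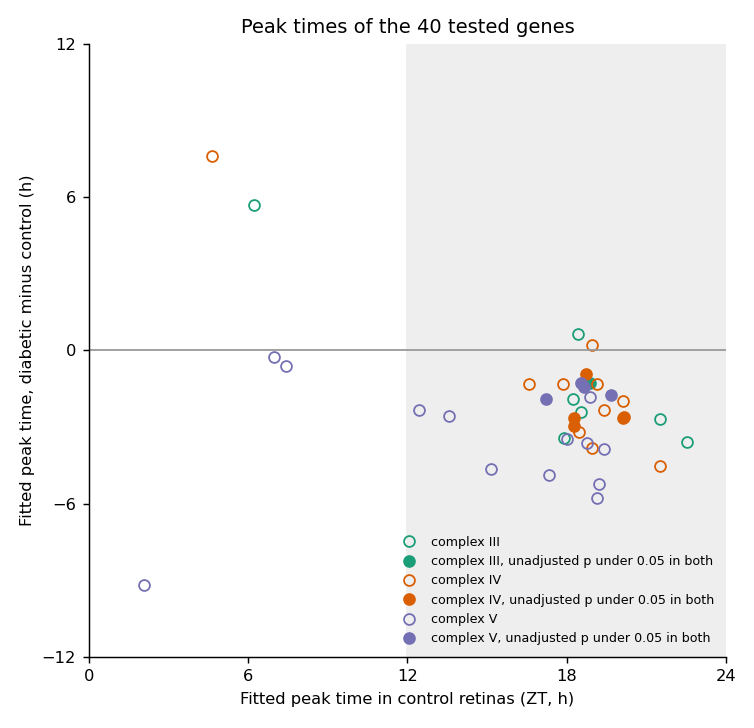
Fitted peak time in control retinas (horizontal axis, ZT in hours, night shaded) against the difference of the peak time, diabetic minus control (vertical axis, hours), for the 40 tested members coloured by complex, with filled points where the unadjusted p was under 0.05 in both genotypes. Most points gather near ZT18 and below 0, 36 of 40 in all, and every filled point lies below 0.

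The level itself was compared between 28 diabetic and 30 control libraries over all time points. At an adjusted p under 0.05, 1 of the 40 members was called, Cox7a2l, compared with 2.94% of all genes in either direction and 1.4% of all genes called lower. Cox7a2l has been described as a scaffold of supercomplexes of complexes III and IV, and read counts do not show whether its protein has that role in these mice. Control libraries ran from 36.8 over a median of 52.7 to 67.1 CPM and diabetic libraries from 38.9 over 47.2 to 58.04 CPM, so the ranges overlapped widely. The log2 difference, diabetic minus control, was -0.19 ± 0.05 (SE), or -12.5% in level (edgeR adjusted p = 0.00951). It was lower in diabetic retinas at 6 of 6 time points, where the log2 difference was -0.20 ± 0.11, -0.13 ± 0.11 and -0.22 ± 0.11 for the light phase (ZT1, ZT5, ZT9) and -0.11 ± 0.12, -0.24 ± 0.12 and -0.26 ± 0.12 for the dark phase (ZT13, ZT17, ZT21). Leaving out any 1 library kept the value between -0.21 and -0.18 and the adjusted p between 0.00236 and 0.0155 (edgeR).

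At an unadjusted p under 0.05, 5 members were lower in diabetic retinas (7.47% of all genes were lower at this level) and none higher, with 15.4% of all genes past it in either direction. Beside Cox7a2l these were Atp5g2 with -0.13 ± 0.05, Uqcrh with -0.09 ± 0.04, Atp5s with -0.13 ± 0.06 and Atp5h with -0.09 ± 0.04, on the log2 scale (edgeR adjusted p from 0.152 to 0.295). Atp5g2 ran from 7.40 over 9.78 to 14.1 CPM in control and from 7.19 over 9.60 to 10.9 CPM in diabetic libraries. Of all 40 members, 33 had an estimate below 0, with a median of -0.026, compared with a share of 49.5% and a median of 0.00084 over all genes. By complex, the estimate was lower for 8 of 8 in complex III, 12 of 15 in complex IV and 13 of 17 in complex V. Ribosomal protein genes were lower for 78 of 81, with a median of -0.084, and complex I genes for 28 of 35, with a median of -0.031. Rod markers, the largest marker group, summed to a median of 48230 CPM in control and 45680 CPM in diabetic libraries. Cone markers had medians of 916.8 and 856.4 CPM and bipolar cell markers 1028 and 977.0 CPM. The median was higher in diabetic libraries for ganglion cell, blood and muscle markers and lower for all other marker lists. The part of these cell types in the differences was not tested. In whole retinas, fewer cells of a type and less RNA per cell cannot be told apart. The isoforms gave wider intervals, with log2 differences of -0.48 ± 0.24 for Cox8b, 0.21 ± 0.12 for Cox7a1 and 0.14 ± 0.09 for Cox6b2, and no call (edgeR adjusted p = 0.329, 0.403 and 0.475). Abundant subunits were close to 0, at -0.01 ± 0.04 for Atp5b, -0.04 ± 0.04 for Cox4i1 and -0.01 ± 0.04 for Atp5g3.

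**Figure D5:**
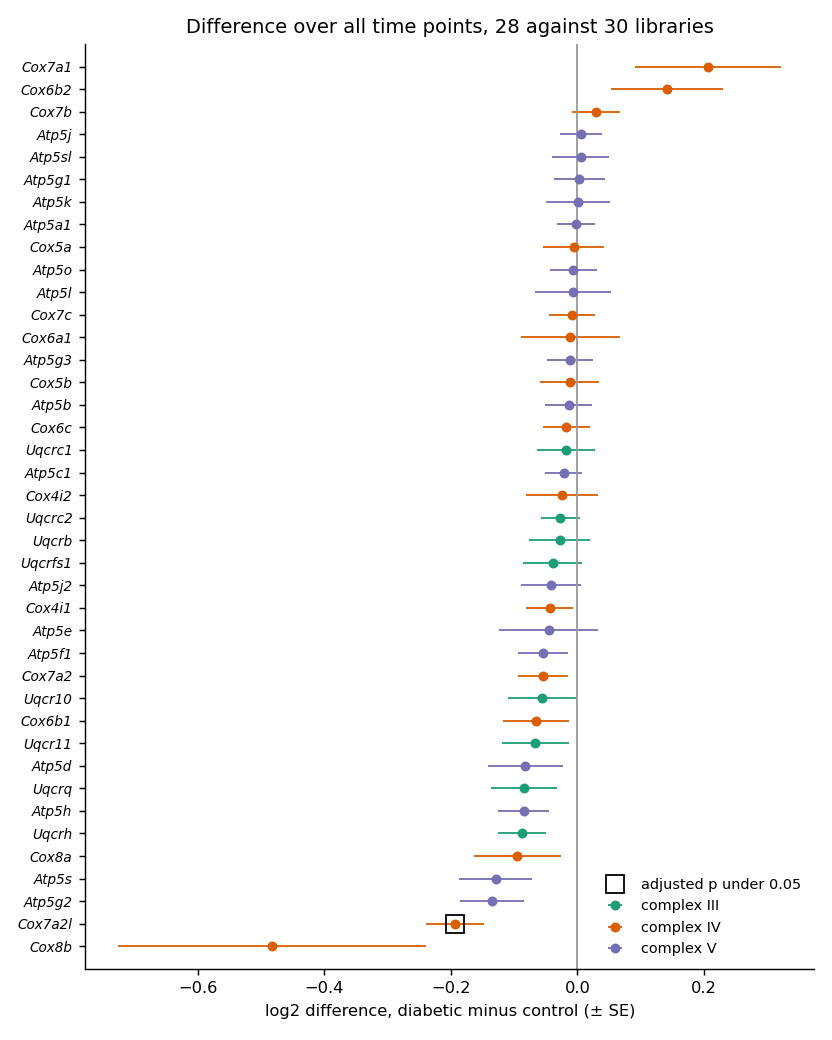
Log2 difference in level, diabetic minus control, over all time points for the 40 tested members, with bars for the SE and colours for the complex. Points lie mostly just left of 0 (33 of 40), and Cox7a2l at -0.19, boxed, is the only one with an adjusted p under 0.05.

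At single time points, no member passed at any ZT (edgeR, adjusted p under 0.05), while the share of all genes called was 0.0105%, 0.0209% and 0.00523% by day (ZT1, ZT5, ZT9) and 0.0%, 0.152% and 0.0% by night (ZT13, ZT17, ZT21). DESeq2 called 0 members at each time point as well. At an unadjusted p under 0.05, the counts of members were 3 (5.5% of all genes), 0 (6.04%) and 0 (4.44%) at these day points and 1 (4.38%), 1 (8.79%) and 2 (4.56%) at these night points. The estimates were lower in diabetic retinas for 35 of 40 members at ZT1, with a median log2 difference of -0.13, and for 32 of 40 at ZT21, with a median of -0.04, while they were evenly split at ZT9 (20 of 40) and ZT13 (19 of 40). At ZT1, the ribosomal protein genes had a median of -0.16 and complex I genes of -0.11. The members with the smallest p-value were Uqcrh at ZT1 (-0.17 ± 0.08), Cox8b at ZT5 (-1.28 ± 0.64), Cox7a2l at ZT9, Cox6b2 at ZT13 (0.52 ± 0.21), Cox8b at ZT17 (-1.21 ± 0.46) and Cox7a2l at ZT21, with adjusted p-values from 0.356 to 1.0 (edgeR). Cox8b at ZT17 was at 0.831, 0.432, 0.102 and 0.364 CPM in diabetic libraries and at 0.496 to 1.67 CPM in control libraries, so the groups overlapped.

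The remaining genes of the same machinery were read from lists of known function. Of 10 subunits of complexes III to V whose names the rule does not match, 6 were tested and none passed in any comparison by edgeR, with 1 at an unadjusted p under 0.05 for rhythm in diabetic retinas (2010107E04Rik) and none in control retinas. Among them, Cyc1, the cytochrome c1 of complex III, had log2 amplitudes of 0.05 ± 0.04 and 0.02 ± 0.04, and the mitochondrially encoded mt-Cytb and mt-Co1 had 0.09 ± 0.08 and 0.04 ± 0.08, and 0.08 ± 0.08 and 0.06 ± 0.08. The other mitochondrially encoded subunits, mt-Co2, mt-Co3, mt-Atp6 and mt-Atp8, had means under 1 read per library in the counts, while mt-Co1 had a mean of 77810 reads.

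Of 31 assembly factors, counting the ATPase inhibitor Atpif1, 30 were tested, and 2 passed in control and 2 in diabetic retinas, 6.67% in each and below the 12.1% and 14.1% of all genes. The copper chaperones Cox17 (0.20 ± 0.06, peak at ZT7.22) and Sco1 (0.14 ± 0.04, peak at ZT7.58) changed in control retinas, and Sco1 (0.18, peak at ZT6.22) and Coa5 (0.16, peak at ZT7.96) in diabetic retinas, all with peaks in the light phase (edgeR adjusted p = 0.0428, 0.0214, 0.00319 and 0.00560). The fitted peak lay in the dark phase for 12 of these 30 genes in control (40%, with 46.1% of all genes) and 11 in diabetic retinas (36.7%, with 48.1% of all genes). Between genotypes, Cox15, needed for the heme A of complex IV, and Coa3, a stabilizer of newly made mt-Co1 protein, were lower in diabetic retinas. Their log2 differences were -0.10 ± 0.03 and -0.14 ± 0.04 (edgeR adjusted p = 0.0206 and 0.0372). They were the only 2 of the 30 called, compared with 2.94% of all genes in either direction and 1.4% of all genes called lower. Of 10 transcription factors and coactivators of the nuclear-encoded subunits, 1 passed in control and 2 in diabetic retinas (10% and 20% of the list, with 12.1% and 14.1% of all genes). Esrra, an orphan nuclear receptor active on respiratory genes, passed in control retinas (0.15 ± 0.04, peak at ZT19.7, edgeR adjusted p = 0.0275), and Nrf1 (0.09, peak at ZT22.8) and the coactivator Pprc1 (0.25, peak at ZT5.99) in diabetic retinas (edgeR adjusted p = 0.0334 and 0.00320). None of the 10 was called between genotypes, where the smallest adjusted p was 0.205, for Yy1 (edgeR).

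Complex I, a main entry point of the chain, was read in the same way. Of 35 nuclear-encoded complex I genes, 5 (14.3%, with 12.1% of all genes) passed in control retinas, Ndufa8, Ndufb11, Ndufa10, Ndufv3 and Ndufb2, with peaks between ZT17.7 and ZT19.6, and 1, Ndufb3 (2.86% of the list, with 14.1% of all genes), passed in diabetic retinas with a peak at ZT16.8. The largest of these amplitudes was that of Ndufa8, 0.17 ± 0.04 (edgeR adjusted p = 0.00281). Of 81 tested ribosomal protein genes, 2 (2.47%) passed the test of rhythm in control and 3 (3.70%) in diabetic retinas by edgeR, below the shares of all genes. Over the 12 group means, the genes outside the member list most like the median course of the members were Pdk2, a kinase that restrains pyruvate dehydrogenase (Pearson's r = 0.970), Atcay (0.968) and the complex I subunit Ndufa8 (0.967). These are the 3 highest of all tested genes over 12 points, and the coefficients describe likeness only.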

How the data were processed

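RNA from 58 mouse retina libraries (30 control, 28 diabetic) was sequenced as paired reads. The deposited values are raw read counts per gene symbol, not normalized, which the authors made by aligning reads to GRCm38.p5 with STAR 2.7.4a, annotating with Gencode and counting with HTSeq 0.11.1. The strand setting and the handling of reads that fit several places are not given in the sources used here. Totals of 7773117 to 22147398 counted reads per library limit the precision of low genes such as Cox8b.

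Counts were tested with edgeR 4.0.16 (quasi-likelihood, TMM factors) over the 19120 genes with a median normalized count above 4, with Benjamini-Hochberg adjustment over all of them and a threshold of 0.05. One fit held a cosine and a sine of 24 h for each genotype, and gave the rhythm in each and their difference. A separate fit with genotype alone, and no term for time of day, gave the difference in level. A further fit with 12 groups gave the difference at each time point. The SE of an amplitude leaves out the covariance of the cosine and sine terms. Levels are CPM, and deviations are on the log2(CPM + 0.5) scale. Alternatives were DESeq2 1.42.0 tests and size factors, other filters, a replicate block, a length and GC correction, empirical JTK_CYCLE, a test of any time difference, and fits without each library or time point. The tests were tried on simulated data. The labels call the libraries biological replicates and do not say whether any came from the same mouse.

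The members and gene lists were chosen with earlier results of these data known. Genes were named by a rule: for each complex the 3 smallest p for rhythm in each genotype, the 5 smallest p for the difference in rhythm and in level, the smallest p at each time point, the isoforms, the most abundant member and the genes that are no core subunits. The other members are given beside them, chosen after their values were seen.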

Additional observations from a re-analysis of the deposited data

Results flagged for a closer look

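In 5 groups, a single library stood away from the others, out of 96 groups of 4 to 6 libraries examined by Dixon's test, in which chance alone sets about 1 in 20 groups apart. The median deviation of the members was 0.046 (log2) in diabetic ZT1 replicate 1 and from -0.16 to -0.13 in the 4 other diabetic ZT1 libraries, and Atp5b in the same library was at 759 CPM compared with 622 to 651 CPM. Cox4i2 was at 16.9 CPM in control ZT13 replicate 4, with the others from 11.1 to 12.7 CPM, and at 10.6 CPM in diabetic ZT9 replicate 2, with the others from 12.9 to 13.7 CPM. Uqcrh was at 53.6 CPM in control ZT13 replicate 2, with the others from 63.3 to 66.9 CPM.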

How the results depend on the processing

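The counts of rhythmic members depended on the processing, while the counts for the difference in rhythm (0), for the level over all time points (1, Cox7a2l) and for single time points (0) were the same under every alternative run for them. Against 5 members in control and 2 in diabetic retinas, the counts were 3 and 1 with no filter on low counts, 1 and 1 for any difference among the 6 time points and 10 and 6 by empirical JTK_CYCLE with unadjusted p. With adjusted p, JTK_CYCLE gave 1 in control retinas. Without one time point, controls gave 1 (ZT5), 3 (ZT9), 9 (ZT13) and 0 (ZT17), and diabetic retinas gave 1 (ZT1), 0 (ZT5), 1 (ZT9), 5 (ZT13), 1 (ZT17) and 0 (ZT21). Leaving out 1 library at a time gave 0 to 11 in control and 0 to 4 in diabetic retinas, 0 to 0 for the difference and single time points and 1 to 1 for the level. Over all genes, 2319 were called for rhythm in control retinas and 2699 for rhythm in diabetic retinas, and these counts were 736 and 1325 without ZT17, 1156 in control without ZT5, 1788 and 1499 in diabetic retinas without ZT9 and ZT21, and 4172 and 4565 by unadjusted JTK_CYCLE. The comparison of diabetic against control over all time points called 562 genes, 364 with no filter, 876 with the length and GC correction and 880 as the mean of the 6 differences. For settings with no count over all genes given here, a change in members cannot be set against one over all genes. The causes were not tested. No called difference in level changed sign.

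With the replicate block, 9 members (22.5%) passed in control and 2 in diabetic retinas, and 15.7% of all genes passed in each. With the length and GC correction added to the block, controls gave 10 members, with 18.1% of all genes. Diabetic retinas gave 3 members (7.5%) in that fit, with 21.2% of all genes. The block alone changed no other count of members. The numbers were not taken to pair the samples: libraries of the same number had a median correlation of 0.334 over 289 pairs (-0.0439 over 1251 pairs of other numbers), and control and diabetic libraries of one number had medians of 0.378 to 0.544 at the 6 time points. At ZT1, ZT13 and ZT21 each of these pairs was above 0.1, but the lowest pair was at 0.0777 at ZT5, -0.0557 at ZT9 and -0.687 at ZT17, and 27 of 58 libraries, not all, correlated best with their own number. This is a hint from the data that libraries of one number share structure, and the labels name no source for it.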
